A study of Mus musculus with 8 samples.

Results

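Gene expression in neurospheres after 3 days with rcCHIL3 was compared with that after 7 days in MHM + GF, on 2 arrays for each group. The probe sets described are all those, apart from array controls, with a signal of at least 50 on at least 2 of these 4 arrays, where each array was scaled to an average signal of 100. They numbered 14562 of the 45101 probe sets on the array, and 12971 of them carried a single gene symbol, for 8454 of the 18193 genes with a symbol there. The rule used the signal level alone and not the difference between the groups.

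The series' design text gives adult mouse brain as the source of the neural stem cells (NSCs), whereas the study's methods describe neurospheres of both embryonic and adult forebrain without naming the source for the arrays. They were grown as neurospheres, floating clusters in which stem cells, dividing progenitors and their progeny are mixed, and secondary neurospheres were then kept in a test medium. rcCHIL3 was MHM conditioned by HEK293T cells, a human embryonic kidney line, that had been transfected with the mouse gene Chil3 (also called ECF-L or Ym1), and no growth factor is stated to have been added. MHM + GF was the same base medium with FGF-2 and EGF, the growth factors usually given to expand NSCs. The series has 8 arrays, 2 for each of rcCHIL3 at 3 days, rcCHIL3 at 7 days, MHM + GF at 3 days and MHM + GF at 7 days. The same-medium and same-day groups were used here for the common estimate of error and, where stated, for their levels. The compared groups differed in medium and in days of culture together, so within this comparison the effect of rcCHIL3, of HEK293T products, of missing growth factors and of time cannot be told apart. The sources describe 2 independent experiments for a group and do not give the animals.

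CHIL3 is a secreted member of the chitinase family that has no chitinase activity and is made by macrophages and microglia. In the adult ventricular-subventricular zone, quiescent NSCs with astrocyte features give rise to transit-amplifying progenitors that carry the EGF receptor and the Dlx transcription factors, and these produce neuroblasts, while other progenitors form oligodendrocytes. In culture, FGF-2 and EGF keep progenitors dividing through their receptors and the ERK kinases, and cells that run short of them divide less and begin to differentiate.

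The arrays were alike in the share of probe sets at a signal of 50 or more, 30.1% to 31.4%. The correlation was 0.994 between the rcCHIL3 arrays at 3 days and 0.991 between the MHM + GF arrays at 7 days, against 0.929 to 0.933 across the groups. The 5′ control probe set of 18S RNA varied within a group, with 1886 and 809 in MHM + GF at 7 days, against 906 and 866 with rcCHIL3 at 3 days. One sign of RNA quality moved with the group: the ratio of the 3′ to the 5′ probe set of Actb was 1.41 and 1.34 with rcCHIL3 at 3 days and 1.65 and 1.83 in MHM + GF at 7 days, and its part in the results was not tested. Markers of microglia and of endothelial cells were near background: all 12 microglia and macrophage markers and all 12 endothelial markers on the array stayed under 50 on the 4 arrays, the brightest at 26.3 and 30.9. Of the 14 neural stem and progenitor markers on the array, 11 were measured. Sox2, a transcription factor of neural stem cells, was bright in both groups, at 1685 and 1770 with rcCHIL3 at 3 days and 2096 and 2014 in MHM + GF at 7 days.

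Of the 14562 probe sets, 6935 (47.6%) differed, 3435 of them (23.6%) upward with rcCHIL3 at 3 days relative to MHM + GF at 7 days and 3500 (24%) downward, at an adjusted p under 0.05 in limma with Benjamini-Hochberg adjustment over all of them. Differences are given as log2 of the signal plus 20, so that the ratios of low signals are understated, and folds are ratios of mean signals. Both rcCHIL3 arrays were above both MHM + GF arrays for 5316 probe sets (36.5%) and below them for 5494 (37.7%). A probe set under 50 on both arrays of 1 group passed the filter through the other group alone, which fixed its direction. Falls named below with this limit include Rnase4, Rgs5, Pdgfrb, Slc6a11, Pde1b, Etv5, Il17rd, Mcm3, Mobp, Ccn2, Enkur, Cfap126, Gbp2, Perp and Ephb3. Rises with it include Hk2, Nuak1, Kcna1, Hbegf, Atf3, Sema5a, Acta2, Igfbp3, Pmaip1, Sema3b and Efna1. The counts and medians of the gene lists below also hold genes with this limit. Examples are Gins1, Gins2, Anln, Dlx5, Nr2e1, Fzd8 and Boc among the falls, and Egln3, Gria3 and Sfrp2 among the rises. Most changes were small. On the log2 scale 332 probe sets (2.28%) rose and 293 (2.01%) fell at least 2-fold, and 21 rose and 23 fell at least 4-fold. The median difference was -0.01 and the median standard error (SE) 0.09. For 9978 probe sets (68.5%) the 95% confidence interval of the difference lay within 1.5-fold in either direction, and these are called alike below. As 2619 of the alike probe sets also passed the test, a small difference can be both significant and bounded. Counted once per gene, on the brightest probe set, 1951 genes (23.1%) were higher, 2187 (25.9%) lower and 5961 (70.5%) alike, with a median of -0.02, and these are the backgrounds for the gene lists that follow.

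**Figure D1:**
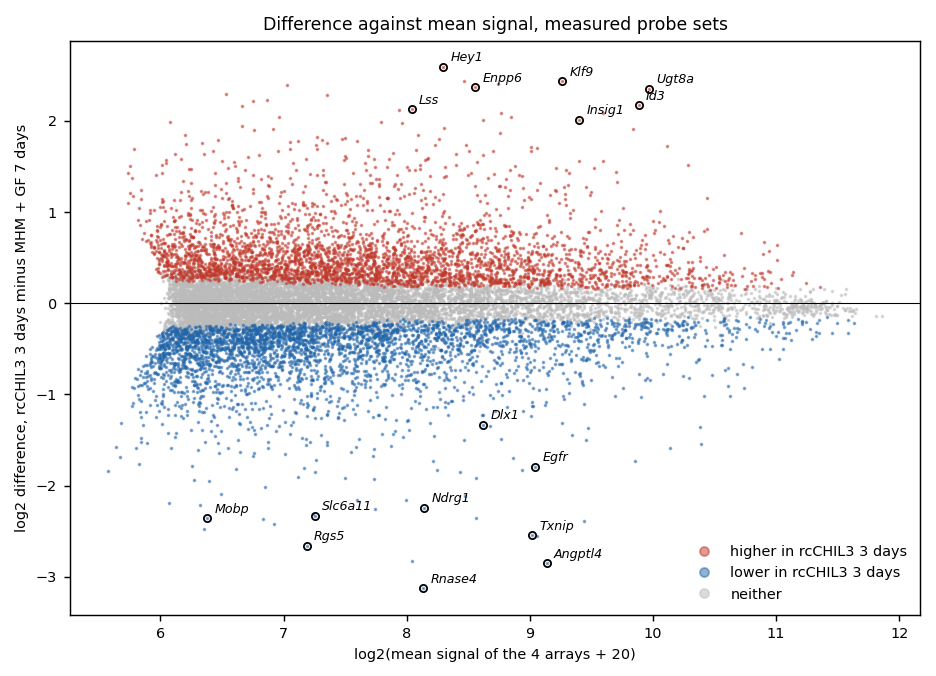
Log2 difference (rcCHIL3 at 3 days minus MHM + GF at 7 days) against log2 mean signal for the 14562 probe sets, each a point, colored by the call at an adjusted p under 0.05. The 3435 higher and 3500 lower probe sets lie on both sides of 0 at every signal level, with Hey1 at 2.59 and Rnase4 at -3.13 the outermost of the named genes.

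Cholesterol synthesis rose almost as a whole. Of 19 measured genes of the pathway, 18 were higher with rcCHIL3 at 3 days, 13 of them at least 2-fold, none was lower, and the median difference was 1.47, against 23.1% of all genes higher and a median of -0.02. These genes follow the sterol-sensing factor SREBP-2, which is held in the endoplasmic reticulum by Insig1 when sterols suffice. Lss, lanosterol synthase, had a signal of 407 and 411 with rcCHIL3 at 3 days and 81.9 and 74.5 in MHM + GF at 7 days, so that the groups lay far apart and their arrays close together (5.23-fold, log2 2.13 ± 0.08 SE, adjusted p = 9.4e-09). Insig1 itself had 1037 and 1088 with rcCHIL3 and 235 and 262 in MHM + GF (2.01 ± 0.07, adjusted p = 8.6e-09). Fdps, which makes farnesyl diphosphate, had 615 and 607 against 145 and 128 (2.01 ± 0.07, adjusted p = 1e-08). In each of these 3 genes both rcCHIL3 arrays were above both MHM + GF arrays by more than 3-fold. Dhcr7, which carries out the last reduction to cholesterol, had 356 and 400 with rcCHIL3 at 3 days and 59.3 and 85.1 in MHM + GF at 7 days (2.12 ± 0.14). Mvd, mevalonate diphosphate decarboxylase, differed by 1.82 ± 0.09, Idi1 by 1.86 ± 0.09, Cyp51 by 1.68 ± 0.09 and Sqle by 1.37 ± 0.07. Hmgcs1, at the start of the pathway, differed by 0.58 ± 0.07. Ebp was the single gene that did not pass (0.07, with group means of 51.2 and 47.7).

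Promoters of the pathway were read because its genes moved together. The windows are 250 bases before to 50 after the gene start in RefSeq (GRCm38.p6), searched on both strands for ATTGG, the core of the CCAAT box bound by NF-Y, and for TCACNCCAC, the sterol element first described in the human LDL receptor promoter. All 15 measured cholesterol genes with a window held ATTGG, in any window where a gene had several, against 43.2% of the 6966 measured genes with a window and 37.4% of all 32851 windows. TCACNCCAC was in 1 of the 15, Hmgcs1, against 1.42% of the measured genes with a window. ATTGG was not particular to this pathway, since 12 of 14 genes of DNA replication, a list that fell, also held it. The windows of Lss (chr10:76531355-76531654, plus strand), Mvd (chr8:122443373-122443672, minus strand) and Hmgcs1 (chr13:119690101-119690400, plus strand) are printed 5′ to 3′ with both motifs in capitals, to show 1, 2 and 4 ATTGG matches and the one sterol element. A match is a stretch of letters and not a measured binding site.
Lss: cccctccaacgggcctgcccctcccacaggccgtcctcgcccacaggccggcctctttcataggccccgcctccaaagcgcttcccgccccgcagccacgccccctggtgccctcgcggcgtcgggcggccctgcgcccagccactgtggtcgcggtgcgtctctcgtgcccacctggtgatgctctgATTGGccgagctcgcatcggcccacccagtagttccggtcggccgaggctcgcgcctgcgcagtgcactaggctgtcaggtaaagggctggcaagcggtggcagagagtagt
Mvd: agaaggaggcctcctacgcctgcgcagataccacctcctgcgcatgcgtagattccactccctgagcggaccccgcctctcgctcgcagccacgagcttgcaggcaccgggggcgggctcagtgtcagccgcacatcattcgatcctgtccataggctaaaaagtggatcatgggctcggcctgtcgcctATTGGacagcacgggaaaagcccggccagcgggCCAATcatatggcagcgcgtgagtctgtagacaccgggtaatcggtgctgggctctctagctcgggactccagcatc
Hmgcs1: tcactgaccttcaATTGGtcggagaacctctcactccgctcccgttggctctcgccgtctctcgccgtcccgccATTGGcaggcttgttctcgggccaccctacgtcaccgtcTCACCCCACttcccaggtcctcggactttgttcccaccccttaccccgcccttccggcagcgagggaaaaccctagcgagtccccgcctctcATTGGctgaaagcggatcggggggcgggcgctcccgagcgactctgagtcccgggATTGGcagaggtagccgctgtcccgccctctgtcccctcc

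The rest of lipid synthesis rose with it in part. Of 15 genes of fatty acid and lipid synthesis, 11 were higher with rcCHIL3 at 3 days and 2 lower (median 0.70). Scd1, the desaturase that makes oleate, had a signal of 1235 and 1228 with rcCHIL3 at 3 days and 250 and 300 in MHM + GF at 7 days (4.48-fold, 2.09 ± 0.08, adjusted p = 1.4e-08). Acss2, which makes acetyl-CoA from acetate, had 537 and 528 with rcCHIL3 and 147 and 160 in MHM + GF (1.67 ± 0.08). For both enzymes the groups were well separated. The 2 that fell were Thrsp (Spot 14, a lipogenic nuclear protein), with 383 and 386 against 778 and 862 (-1.05 ± 0.08), and Srebf1, which stayed alike (-0.36). Outside the list, Acsl6, an acyl-CoA synthetase of neural cells, was among the 12 largest rises and had 688 and 710 with rcCHIL3 at 3 days and 114 and 117 in MHM + GF at 7 days (6.05-fold, 2.41 ± 0.07, adjusted p = 3.2e-09). Its 2 probe sets rose by 1.05 and 2.41. Vldlr, a lipoprotein and reelin receptor, differed by 1.64 ± 0.08. Npc1, which exports cholesterol from lysosomes, differed by 0.71 ± 0.09, while the lysosome list around it was balanced (6 higher and 6 lower of 23, median 0.03).

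Glycolytic and hypoxia-responsive genes were higher as well. Of 24 measured, 21 rose and 2 fell (1 without rcCHIL3 replicate 2 at 3 days), with a median of 0.69. Hk2, the hexokinase that commits glucose to glycolysis, had a signal of 167 and 149 with rcCHIL3 at 3 days and 19.4 and 16.8 in MHM + GF at 7 days, where it was under the level of 50 that marks a usable signal (8.72-fold, 2.22 ± 0.09, adjusted p = 2e-08). Ldha, lactate dehydrogenase, had 1206 and 1185 against 458 and 398 (1.44 ± 0.07), and Slc2a1, the glucose transporter GLUT1, had 739 and 765 against 278 and 303 (1.32 ± 0.07). Vegfa, the angiogenic factor induced by HIF-1, had 394 and 384 with rcCHIL3 at 3 days and 129 and 117 in MHM + GF at 7 days (1.52 ± 0.08). All these genes separated the groups without overlap. Ndrg1, also known as a hypoxia-induced gene, went the other way, with 80.6 and 76.4 against 435 and 457 (5.68-fold lower, -2.24 ± 0.07, adjusted p = 5.8e-09). Txnip, which restrains glucose uptake and is itself induced by glucose, was at 135 and 130 with rcCHIL3 and 882 and 853 in MHM + GF (6.56-fold lower, -2.54 ± 0.06, adjusted p = 1.5e-09). Angptl4, a secreted inhibitor of lipoprotein lipase, was at 116 and 118 against 1022 and 915 (8.28-fold lower, -2.85 ± 0.08), and Pdk4, a kinase that holds pyruvate back from oxidation, at 215 and 216 against 518 and 540 (-1.22 ± 0.08). The mean signals show which group stood apart: Vegfa averaged 389 with rcCHIL3 at 3 days, 855 with rcCHIL3 at 7 days, 843 in MHM + GF at 3 days and 123 in MHM + GF at 7 days, so that MHM + GF at 7 days was the lowest of the 4 groups, and Ldha and Hk2 had their lowest means there too.

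Promoter windows of the glycolysis and hypoxia list were searched for ACGTG, the core of the element bound by HIF-1, which also lies in E-boxes (CACGTG counts on both strands). It was in 18 of 23 genes with a window (78.3%), against 30.7% of the measured genes with a window, 34.1% of those that rose and 26.9% of those that fell. As the list was written from general knowledge of hypoxia-responsive genes, a high share was likely whatever the arrays showed. A gene with several windows counted if any of them held a match, and a further Ldha window (chr7:46846832-46847131) held 0. Ldha (chr7:46845554-46845853, plus strand, GRCm38.p6) held 5 matches and Hk2 (chr6:82774405-82774704, minus strand) 2, in capitals in the windows printed here for 2 of the genes that rose.
Ldha: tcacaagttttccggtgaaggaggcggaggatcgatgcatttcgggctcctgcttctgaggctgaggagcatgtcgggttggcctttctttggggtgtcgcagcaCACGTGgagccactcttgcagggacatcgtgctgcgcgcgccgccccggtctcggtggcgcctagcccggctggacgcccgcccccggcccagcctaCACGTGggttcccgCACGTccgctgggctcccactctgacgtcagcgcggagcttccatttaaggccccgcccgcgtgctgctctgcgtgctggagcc
Hk2: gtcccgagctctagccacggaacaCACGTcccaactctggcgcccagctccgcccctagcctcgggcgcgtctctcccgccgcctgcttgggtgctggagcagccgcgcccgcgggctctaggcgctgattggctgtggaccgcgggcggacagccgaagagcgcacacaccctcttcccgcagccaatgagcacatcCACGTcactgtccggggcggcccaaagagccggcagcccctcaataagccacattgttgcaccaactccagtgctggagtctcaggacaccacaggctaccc

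**Figure D2:**
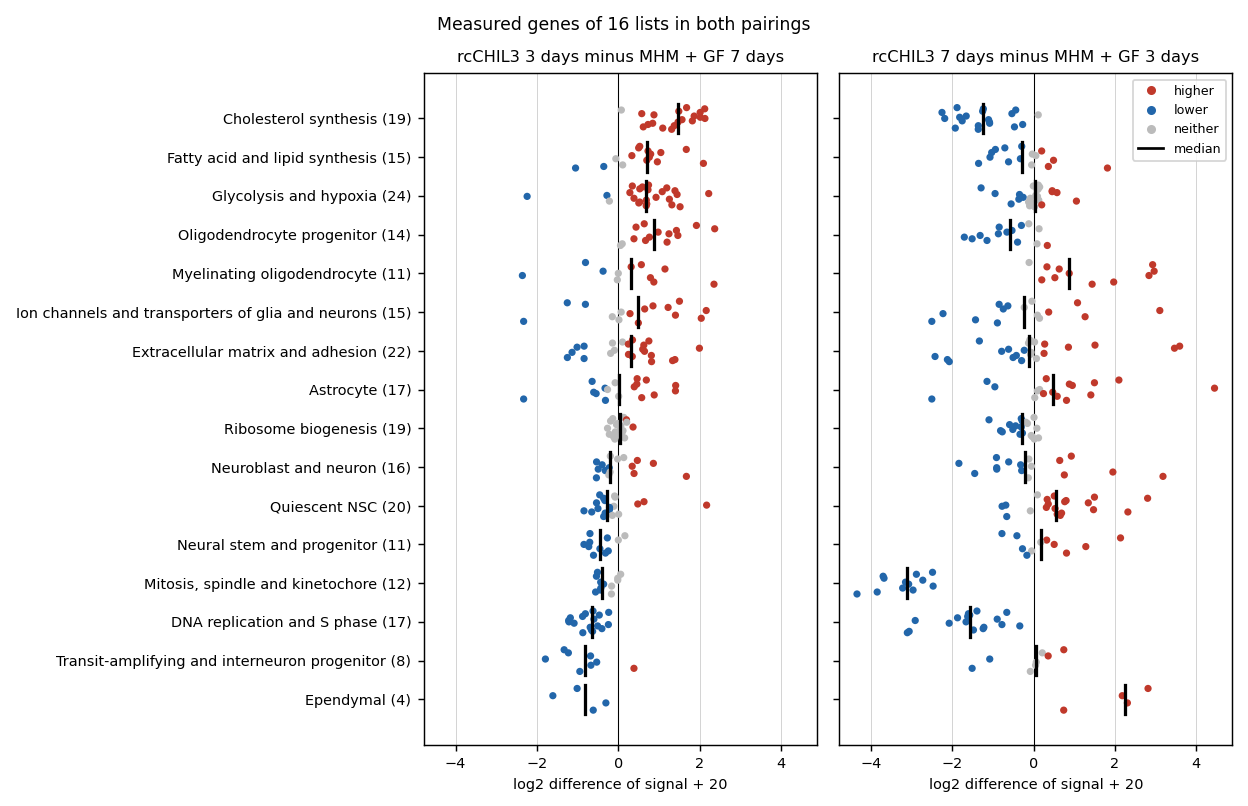
Log2 differences of the measured genes (points, number in brackets) of 16 gene lists, with the median as a bar, for rcCHIL3 at 3 days minus MHM + GF at 7 days (left) and rcCHIL3 at 7 days minus MHM + GF at 3 days (right). Cholesterol synthesis had a median of 1.47 on the left and -1.25 on the right, whereas DNA replication was below 0 on both sides (-0.66 and -1.57).

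Genes of oligodendrocyte progenitors were higher with rcCHIL3 at 3 days. Of 14 markers, all measured, 12 rose, none fell, and the median was 0.87. Bulk arrays cannot tell a change in the number of such cells from a change in RNA per cell. Enpp6, a choline phosphodiesterase of newly forming oligodendrocytes, had a signal of 555 and 665 with rcCHIL3 at 3 days and 123 and 83.6 in MHM + GF at 7 days (5.91-fold, 2.37 ± 0.15, adjusted p = 5.1e-07). Its mean of 610 stood apart from 145 with rcCHIL3 at 7 days, 132 in MHM + GF at 3 days and 103 in MHM + GF at 7 days. Bmp4, a ligand that these progenitors make, had 508 and 449 against 123 and 101 (1.92 ± 0.10), with means of 131 and 165 with rcCHIL3 at 7 days and in MHM + GF at 3 days. Nkx2-2, a transcription factor needed for oligodendrocyte maturation, had 210 and 219 with rcCHIL3 at 3 days and 69.7 and 60.7 in MHM + GF at 7 days (1.46 ± 0.09). Gpr17, a receptor of committed precursors, differed by 1.43 ± 0.07, Sox10, which drives the lineage, by 1.20 ± 0.10, Olig1 by 0.76 ± 0.06 and Pdgfra, the PDGF receptor of early progenitors, by 0.67 ± 0.10. The summed signal of the 14 markers was 8984 and 9017 on the rcCHIL3 arrays at 3 days and 5211 and 5189 on the MHM + GF arrays at 7 days.

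Genes of myelinating cells did not move as one. Among 11 measured, 6 were higher and 3 lower (median 0.31). Ugt8a, which makes the myelin lipid galactosylceramide, had 1640 and 1677 with rcCHIL3 at 3 days and 316 and 302 in MHM + GF at 7 days (5.36-fold, 2.35 ± 0.06, adjusted p = 1.5e-09), and Fa2h, which hydroxylates the fatty acids of that lipid, had 238 and 236 against 96.6 and 96.0 (1.15 ± 0.09). Mbp, the major compact myelin protein, was alike, with 2626 and 2664 against 2690 and 2606 (-0.00, 95% interval -0.12 to 0.12). Mobp, a late myelin protein, was at 7.0 and 7.4 with rcCHIL3 at 3 days, under the usable level, and at 121 and 118 in MHM + GF at 7 days (-2.36 ± 0.10, adjusted p = 2.9e-08), and its means of 141 with rcCHIL3 at 7 days and 2.6 in MHM + GF at 3 days put it with the 7-day groups. Early lineage genes and lipid enzymes were thus higher, the abundant Mbp was not, and Mobp was lower.

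Receptors and ligands of the EGF, FGF and PDGF families were divided, with 4 of 9 measured genes higher, 4 lower and a median of -0.04. Egfr, the EGF receptor, had a signal of 215 and 218 with rcCHIL3 at 3 days and 757 and 844 in MHM + GF at 7 days (3.70-fold lower, -1.79 ± 0.07, adjusted p = 1.9e-08). All 3 probe sets of Egfr were lower, by -1.79 to -0.81. Its means followed the medium, with 216 and 378 with rcCHIL3 at 3 and 7 days and 819 and 800 in MHM + GF at 3 and 7 days. Fgfr1 had 130 and 126 against 321 and 367 (-1.29 ± 0.09), whereas Fgfr3 was higher by 0.39 and alike, Fgfr2 did not pass (-0.04) and Pdgfra, given above, rose. Etv5, an ETS factor switched on by FGF and ERK signaling, had 35.8 and 29.1 with rcCHIL3 and 156 and 132 in MHM + GF (-1.64 ± 0.11), and Il17rd (Sef), a feedback inhibitor of the same pathway, differed by -1.24 ± 0.12. Both passed the filter through MHM + GF alone, so that they could only be lower. The wider list of ERK feedback genes and immediate targets did not share this direction: of 17, 7 rose and 5 fell, Hbegf, an EGF receptor ligand, rose by 1.34 ± 0.11, and Dusp6 (78.7 and 75.0 against 70.4 and 83.7) and Ccnd1, cyclin D1 (133 and 128 against 135 and 132), were alike. Ccnd1 averaged 866 in MHM + GF at 3 days, so that the compared groups shared a level well under it.

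Of the 8 measured markers of transit-amplifying and interneuron progenitors, 7 were lower and 1, Olig2, higher (median -0.82). Among the 7, Dlx5 (34.6 and 37.6 with rcCHIL3 at 3 days) passed the filter through MHM + GF alone, which fixed its direction. Dlx1, a homeobox factor of interneuron progenitors, had 211 and 197 with rcCHIL3 at 3 days and 541 and 546 in MHM + GF at 7 days (2.67-fold lower, -1.33 ± 0.10, adjusted p = 1.1e-06), and Dlx2 had 189 and 158 against 386 and 481 (-1.23 ± 0.16). Both groups nevertheless lay above the other groups: Dlx1 averaged 39.9 with rcCHIL3 at 7 days and 15.8 in MHM + GF at 3 days. Doublecortin (Dcx), a microtubule protein of neuroblasts, was also above the other groups in both compared groups but was alike between them, with 236 and 204 with rcCHIL3 at 3 days and 223 and 223 in MHM + GF at 7 days (-0.02, 95% interval -0.21 to 0.18), against means of 67.2 with rcCHIL3 at 7 days and 74.4 in MHM + GF at 3 days. Of 16 genes of neuroblasts and neurons, 5 rose (31.2%) and 6 fell (37.5%), against 23.1% and 25.9% of all genes. Tagln3, a neuronal calponin, was the main rise (741 and 788 against 233 and 220, 1.67 ± 0.08), Gap43, the growth cone protein, differed by 0.86 ± 0.09, and Tubb3, neuronal tubulin, by -0.54 ± 0.12.

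**Figure D3:**
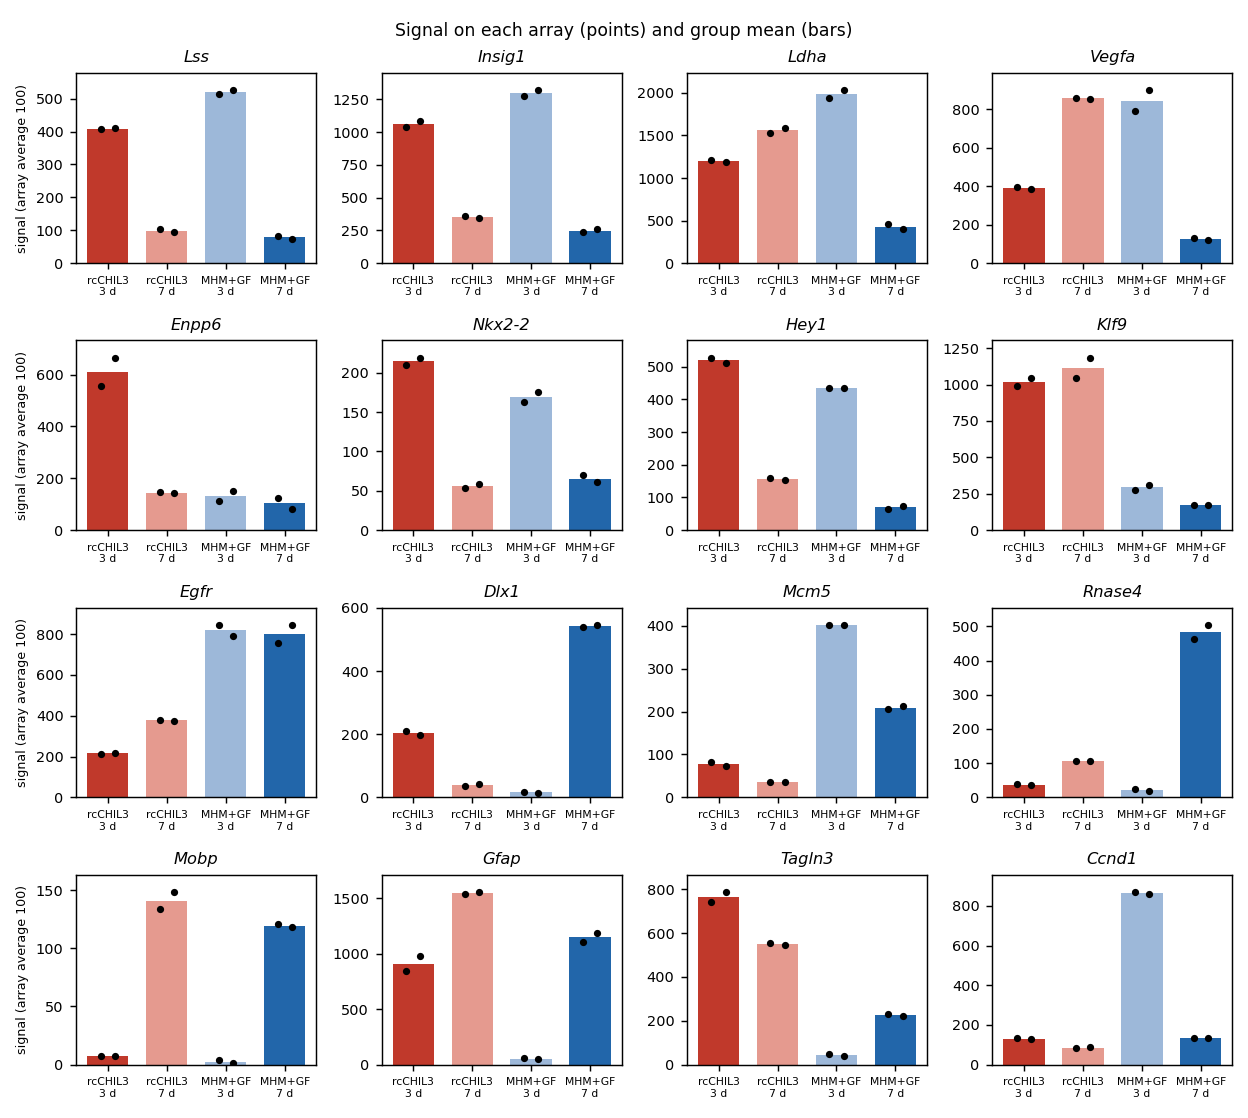
Signal of 16 genes on each array (points) and group means (bars), scaled to an array average of 100, for rcCHIL3 at 3 and 7 days and MHM + GF at 3 and 7 days, from left to right. Lss averaged 409 with rcCHIL3 at 3 days and 78.2 in MHM + GF at 7 days, Egfr followed the medium, and Ccnd1 and Gfap were alike in the compared groups but not in MHM + GF at 3 days.

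Replication genes, and a part of the mitotic genes, were lower with rcCHIL3 at 3 days. All 17 measured genes of DNA replication passed the test downward (median -0.66), 4 of them by at least 2-fold, against 25.9% of all genes. The count includes Mcm3, Gins1 and Gins2, which passed the filter through MHM + GF alone and so could only be lower. Mcm5, a subunit of the replicative helicase, had a signal of 82.2 and 74.3 with rcCHIL3 at 3 days and 206 and 212 in MHM + GF at 7 days (2.67-fold lower, -1.22 ± 0.08, adjusted p = 6e-07). Mcm6 had 81.3 and 75.9 against 225 and 193 (-1.21 ± 0.09), and Mcm3 and Mcm7 differed by -1.18 ± 0.10 and -1.09 ± 0.07. The helicase subunits were thus lower on both rcCHIL3 arrays than on either MHM + GF array. Pcna, the sliding clamp, differed by only -0.25 and was alike. Of 12 measured genes of mitosis and spindle, 7 were lower, none higher, and the median was -0.40. Among the 7, Anln had its direction fixed by the filter in the same way. Top2a, which untangles sister chromosomes, had 115 and 110 with rcCHIL3 and 182 and 169 in MHM + GF (-0.56 ± 0.08), and the mitotic kinase Cdk1 was alike (117 and 102 against 108 and 113, -0.02). Both groups were far under MHM + GF at 3 days, where Top2a averaged 830 and Cdk1 587. Among 14 genes of a list of CDK inhibitors and cell cycle exit, 3 rose and 5 fell. This list also holds the cyclin Ccnd2, so its split is not one of exit genes alone. Cdkn1a (p21) had 1205 and 1288 with rcCHIL3 at 3 days and 753 and 933 in MHM + GF at 7 days (0.56 ± 0.09, and up to 1.42 over its 2 probe sets), and Ccnd2, cyclin D2, 741 and 818 against 1357 and 1338 (-0.78 ± 0.06).

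Stem cell markers were mostly lower by small steps, and astrocyte genes were divided. Of 11 neural stem and progenitor markers, 9 were lower and none higher (median -0.45). Among the 9, Nr2e1 (36.1 and 35.3 with rcCHIL3 at 3 days) passed the filter through MHM + GF alone, which fixed its direction. Pax6, a transcription factor of neural progenitors, had 174 and 165 with rcCHIL3 at 3 days and 313 and 329 in MHM + GF at 7 days (-0.85 ± 0.08), Prom1 (CD133) differed by -0.73 ± 0.07, and Vim, vimentin, by -0.61 ± 0.06. Of 20 genes of quiescent NSCs, 12 were lower and 3 higher, with 12 alike and a median of -0.27. Id3, an inhibitor of differentiation, was the outlier of that list, with 1524 and 1530 against 343 and 306 (4.71-fold, 2.17 ± 0.07, adjusted p = 4e-09). Astrocyte genes split evenly (8 higher and 6 lower of 17, median 0.01). Gfap, the astrocyte filament protein, was alike, with 842 and 978 with rcCHIL3 at 3 days and 1101 and 1189 in MHM + GF at 7 days (-0.33, 95% interval -0.53 to -0.13). Cd44, the hyaluronan receptor, had 685 and 677 against 267 and 223 (1.41 ± 0.08), and Kcnj10, the glial potassium channel Kir4.1, 322 and 342 against 113 and 113 (1.40 ± 0.09). Slc6a11, the astrocyte GABA transporter GAT3, was at 27.5 and 33.9 with rcCHIL3 and at 213 and 257 in MHM + GF (7.66-fold lower, -2.33 ± 0.13, adjusted p = 1.6e-07). It passed the filter through MHM + GF alone, which fixed its direction.

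Markers of other cell types that neurospheres can hold were few. Of 17 ependymal markers on the array, 4 were measured. Enkur, of motile cilia, had 20.2 and 17.8 with rcCHIL3 at 3 days and 96.4 and 102 in MHM + GF at 7 days (-1.61 ± 0.09), and Cfap126, also of cilia, had 30.1 and 27.8 against 67.1 and 92.2 (-1.01 ± 0.15). Both passed the filter only through MHM + GF, which fixed their direction. Foxj1, the regulator of motile cilia, passed through both groups and was lower but alike (107 and 111 against 129 and 149, -0.31 ± 0.09), and Rfx3, a ciliary transcription factor, differed by -0.62 ± 0.07. Of the 12 markers of mural cells and fibroblasts, 9 stayed under 50 on all 4 arrays, and their summed signal was 257 and 257 with rcCHIL3 at 3 days and 504 and 567 in MHM + GF at 7 days. Rgs5, a regulator of G proteins in pericytes, had 23.5 and 16.3 with rcCHIL3 and 227 and 237 in MHM + GF (11.6-fold lower, -2.66 ± 0.11) and Pdgfrb 41.5 and 35.4 against 187 and 211 (-1.91 ± 0.10), both past the filter through MHM + GF alone, and Acta2, smooth muscle actin, was higher (109 and 119 against 38.8 and 49.6, 1.07 ± 0.10). Ttr, transthyretin of the choroid plexus, varied within the groups (146 and 477 with rcCHIL3, 282 and 549 in MHM + GF) and its groups overlapped. What share these cells had in other differences was not tested.

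Genes of the Notch and BMP pathways moved in both directions. Hey1, a transcriptional repressor downstream of Notch and BMP, had a signal of 527 and 510 with rcCHIL3 at 3 days and 63.5 and 75.5 in MHM + GF at 7 days (7.46-fold, 2.59 ± 0.08, adjusted p = 4e-09), the top of the 12 largest rises. Hes5, the Notch target that keeps progenitors undifferentiated, had 921 and 1025 against 458 and 333 (1.27 ± 0.12), while Hes6, which opposes Hes proteins, had 222 and 204 against 433 and 467 (-1.01 ± 0.07). Over the Notch list 4 of 15 rose and 7 fell. Id1 had 1374 and 1475 with rcCHIL3 at 3 days and 354 and 373 in MHM + GF at 7 days (3.92-fold, 1.91 ± 0.07), close to the difference in Id3 given above, and Id2 differed by 0.48, whereas Id4 was lower by its brightest probe set (-0.27, alike by its interval) and had probe sets called in both directions. Nbl1, a secreted BMP antagonist, had 90.8 and 74.8 against 215 and 235 (-1.25 ± 0.12). Over the BMP and Id list 5 of 12 rose and 5 fell, with 3 lower without rcCHIL3 replicate 1 at 3 days. The TGF-beta targets Ccn1 and Ccn2, related matricellular proteins, went opposite ways, Ccn1 with 1603 and 2053 against 576 and 667 (1.52 ± 0.11) and Ccn2 with 7.2 and 9.4 against 116 and 107 (-2.22 ± 0.13). In the Wnt list 1 of 13 rose and 6 fell, with the receptor Fzd9 at 55.2 and 55.0 against 177 and 200 (-1.47 ± 0.09), and in the Hedgehog list 4 of 8 fell and none rose, with Gas1, a co-receptor, at -0.87 ± 0.10 and the receptor Ptch1 at -0.65 ± 0.08.

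Matrix, guidance and channel genes leaned upward. Of 22 genes of extracellular matrix and adhesion, 13 rose and 5 fell (median 0.30). Tnc and Tnr, the tenascins of the glial matrix, had 684 and 691 against 253 and 247 (1.39 ± 0.07) and 1156 and 1194 against 445 and 464 (1.33 ± 0.09), with rcCHIL3 at 3 days first in both, whereas the basement membrane protein Nid1 differed by -1.25 ± 0.11. Islr, a secreted leucine-rich repeat protein, had 325 and 342 with rcCHIL3 at 3 days and 65.5 and 72.2 in MHM + GF at 7 days (1.99 ± 0.09). Of 23 axon guidance genes, 10 rose and 6 fell (median 0.20). Dcc, the netrin receptor, had 236 and 228 against 54.0 and 55.6 (4.24-fold, 1.75 ± 0.08, adjusted p = 4.2e-08), the semaphorin Sema5a differed by 1.28 ± 0.10, the plexin Plxnb3 by 1.19 ± 0.09 and the ephrin receptor Ephb3 by -1.16 ± 0.11. Of 15 channels and transporters, 9 rose and 3 fell (median 0.49). Kcna1, a voltage-gated potassium channel, had 156 and 135 with rcCHIL3 and 19.4 and 14.7 in MHM + GF (8.54-fold, 2.16 ± 0.13), and Slc1a1, the glutamate transporter EAAC1, 707 and 731 against 147 and 173 (2.04 ± 0.08). Kcna1 and Sema5a passed the filter through rcCHIL3 alone, which fixed their direction.

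Several of the largest differences lay outside these groups. Klf9, a zinc finger factor that glucocorticoid and thyroid hormone induce, had a signal of 993 and 1042 with rcCHIL3 at 3 days and 170 and 174 in MHM + GF at 7 days (5.92-fold, 2.43 ± 0.08, adjusted p = 6.2e-09). Other genes of glucocorticoid and clock output were mixed, with 6 of 16 higher and 4 lower, among them Sgk1 (1.55 ± 0.09) and the clock output factor Dbp (1.22 ± 0.07). Nuak1, a kinase related to AMPK, had 247 and 255 with rcCHIL3 and 40.5 and 31.6 in MHM + GF (2.28 ± 0.11). On the log2 scale used here the largest fall among the named genes was in Rnase4, a secreted ribonuclease, with 39.9 and 35.4 with rcCHIL3 at 3 days and 464 and 505 in MHM + GF at 7 days (12.9-fold lower, -3.13 ± 0.10, adjusted p = 4e-09). Rnase4 passed the filter through MHM + GF alone, which fixed its direction. Rnase1, of the same family, had 130 and 141 against 831 and 956 (6.61-fold lower, -2.56 ± 0.10). Both ribonucleases thus separated the groups widely. By ratio of means Mobp (16.6-fold) and Ccn2 (13.5-fold) were lower still, from signals under 50 with rcCHIL3. Plagl1, an imprinted zinc finger gene that restrains growth, had 215 and 192 with rcCHIL3 and 1116 and 1176 in MHM + GF (5.64-fold lower, -2.39 ± 0.07, adjusted p = 4e-09). Also among the 12 largest falls were Itih5, which binds hyaluronan (-2.36 ± 0.08), the calcium-dependent phosphodiesterase Pde1b (-2.31 ± 0.09), the calcium-binding Efhd2 (-2.26 ± 0.34) and the cytochrome P450 Cyp2j9 (-2.16 ± 0.09).

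Genes that were alike in the compared groups could still be far from MHM + GF at 3 days. By rule, 12 such genes with a mean of at least 200 in both groups were taken. Of these, 6 lay above MHM + GF at 3 days: Gfap averaged 910 with rcCHIL3 at 3 days, 1546 with rcCHIL3 at 7 days, 52.0 in MHM + GF at 3 days and 1145 in MHM + GF at 7 days, and S100a4, a calcium-binding protein of motile cells, had 463 and 504 with rcCHIL3 at 3 days and 420 and 512 in MHM + GF at 7 days, against a mean of 24.2 in MHM + GF at 3 days. The others were Clu (clusterin), Ahnak, Entpd2, the ectonucleotidase of NSCs in the adult brain, and Cxcr4, a chemokine receptor. The other 6 lay below it. Kif22, a mitotic kinesin, had 212 and 194 with rcCHIL3 at 3 days and 229 and 256 in MHM + GF at 7 days, and averaged 1093 in MHM + GF at 3 days. Kpna2, a nuclear import factor of dividing cells, Smc4, a condensin subunit, Selenoh, Car2 (carbonic anhydrase 2) and Septin9 were likewise below their MHM + GF mean at 3 days in both compared groups. The differences between the compared groups were between -0.36 for Clu and 0.36 for Entpd2. Ribosome biogenesis was alike as a list: all 19 measured genes had intervals within 1.5-fold, 2 passed the test upward (Nolc1 by 0.36 and Fbl by 0.20) and the median was 0.04. Without rcCHIL3 replicate 1 at 3 days none passed upward, without rcCHIL3 replicate 2 it was 1, and without MHM + GF replicate 2 at 7 days 1 passed upward and 2 downward.

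The opposite pairing, rcCHIL3 at 7 days against MHM + GF at 3 days, shares no array with the main comparison and keeps the order of the media but turns that of the days. There 4683 probe sets were higher (32.2%) and 3636 lower (25%), or 35.3% and 23.4% of the genes. Of the 3435 that were higher here, 35.7% were higher and 28.2% lower there, and of the 3500 that were lower here, 37.6% were higher and 26.3% lower there, beside the 32.2% and 25% of all probe sets. Among the 332 that rose at least 2-fold, 136 were higher and 137 lower in the opposite pairing, and among the 293 that fell at least 2-fold, 148 were higher and 90 lower. Genes that kept and genes that turned their direction were both found among the largest differences.

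Genes that kept their direction included Klf9 (1.85 in the opposite pairing), Islr (3.46), Mir22hg, the host gene of miR-22 (1.73 there and 1.85 here), the mitochondrial nucleotide carrier Slc25a33 (1.71 and 1.98) and the small heat shock protein Hspb8 (2.63 and 1.67). Tagln3 (3.18), Kcna1 (3.10) and Ugt8a (1.44) did the same. Downward in both were Slc6a11 (-2.50), Mcm5 (-2.91), Mcm6 (-1.66), the linker histone H1f2 (-2.76 there and -1.48 here), Mdk, the growth factor midkine (-1.89 and -1.57), and Egfr (-1.08). All 17 replication genes and all 12 measured mitosis genes were lower in the opposite pairing too, with medians of -1.57 and -3.11. The cholesterol genes turned: 18 of 19 were lower in the opposite pairing (median -1.25), with Lss at -2.18, Fdps at -2.25 and Insig1 at -1.82. In their means Lss had 409 and 98.8 with rcCHIL3 at 3 and 7 days and 519 and 78.2 in MHM + GF at 3 and 7 days, high in both 3-day groups and low in both 7-day groups. Oligodendrocyte progenitor genes turned as well (10 of 14 lower there, median -0.59), as did Hes5 (-2.86), Hey1 (-1.37), Dcc (-1.41) and Prkcb, a protein kinase C (-1.69 there and 1.73 here). Among the falls, Rnase4 (1.62 there), Rnase1 (3.37), Plagl1 (1.68), Mobp (2.84), Lgals3 (3.46), the estrogen-metabolizing Cyp1b1 (2.85 there and -1.92 here) and the uncharacterized 6330403K07Rik (1.70 and -1.55) turned upward. Glycolysis and hypoxia genes were split there, with 5 higher and 6 lower of 24 (median 0.04). Vegfa did not differ there (0.02) and Ldha differed by -0.35.

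**Figure D4:**
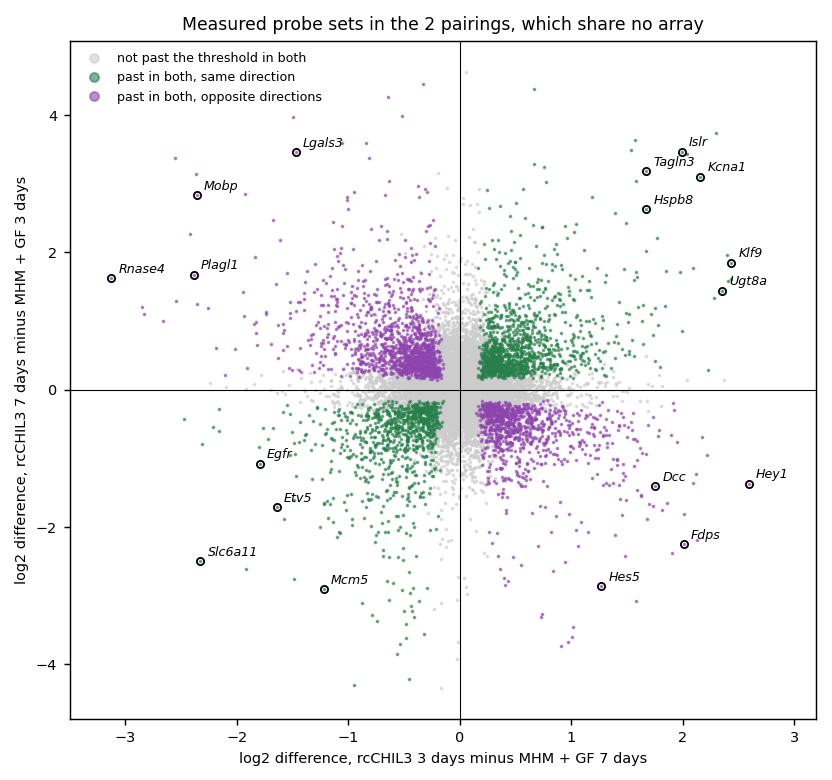
Log2 difference of rcCHIL3 at 7 days minus MHM + GF at 3 days against that of rcCHIL3 at 3 days minus MHM + GF at 7 days, for the 14562 probe sets, each a point. Green points passed the test in the same direction in both pairings (1228 upward, 922 downward) and purple points in opposite directions (970 higher here and lower there, 1317 the reverse).

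The gene that was supplied as protein was not seen in the cells. Chil3 was at 1.3 and 0.7 with rcCHIL3 at 3 days and 0.4 and 1.5 in MHM + GF at 7 days, and its relatives Chil4, Chia1 and Chit1 were under 10 on all 4 arrays. Chil1, the chitinase-like protein of reactive astrocytes, reached 47.8 and 38.1 with rcCHIL3 and 33.3 and 26.1 in MHM + GF, under the filter. Il13ra2 and Ptgdr2 were also under 10, and Serpinf1 (PEDF) had 39.9 and 37.7 against 8.4 and 7.7, below the filter too. Of the measured genes of that list, Tmem219, known in mammals as a receptor of chitinase-like proteins, was alike (57.8 and 71.5 against 70.4 and 86.6). Lgals3, galectin-3, had 114 and 110 with rcCHIL3 and 302 and 397 in MHM + GF (-1.47 ± 0.12), Gsn, gelsolin, differed by -0.45 ± 0.08, and Cd44 and Egfr are given above. Of the genes the study itself names as responding to rcCHIL3, a choice made on these arrays and so no independent evidence, 8 were measured, 7 rose, none fell, and the median was 0.90. They included Sema3b (84.6 and 91.2 against 36.2 and 38.3, 0.91 ± 0.10), the calcium-binding S100b (0.88 ± 0.07), Efna1 (0.54 ± 0.09) and Tgfb2, whose small difference was alike by its interval (0.25, 0.06 to 0.44, adjusted p = 0.034) and did not pass under some other settings. That was its brightest probe set, and all 4 probe sets of Tgfb2 were higher, by 0.25 to 0.72.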

How the data were processed

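Total RNA (100 ng) was labeled with the 3′ IVT Express Kit and hybridized to Affymetrix GeneChip arrays of the mouse genome. Per the labels and the study's methods, the deposited values are linear signal intensities made by the authors with MAS5 (Expression Console 1.1 in the labels) and globally scaled. As their averages (267.3 to 316.6) were not equal, each array was scaled to 100. Probe sets with a signal of at least 50 on 2 of the 4 arrays were kept, and log2(signal + 20) was fitted in limma 3.58.1 (R 4.3.3) with 4 group means on 8 arrays (4 residual degrees of freedom, eBayes with trend), with two-sided Benjamini-Hochberg adjusted p-values. Tables were made in pandas 2.3.3 (Python 3.11.15; numpy 2.4.6), and plots in matplotlib 3.10.9. P-values measure the spread between 2 arrays a group. With so few arrays, their number limits the precision.

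Each gene was represented by its probe set with the highest mean over the 4 arrays and a single symbol (34958 of 45101 probe sets; 34754 matched RefSeq by gene ID; 932 had several symbols and 9211 none). Of 2980 genes with several measured probe sets, 57 had probe sets called in both directions. Genes named by rule were the 12 largest rises and falls with a mean of at least 200, the leading 3 or fewer genes per list by size of difference, with the largest opposite one, 12 alike genes farthest from MHM + GF at 3 days, the leading genes of the opposite pairing, and the CHIL3 list. Other list members and the promoter motifs were picked after their values were seen. Members and the 42 gene lists were chosen with earlier results of these data known. The fit was tested on simulated data. Alternatives covered scaling, offset, filter, model, replicate block, the methods' t-test and leaving out each array. Promoter sequences are from RefSeq, GRCm38.p6. Arrays with the same number did not deviate together, so no block was used.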

Additional observations from a re-analysis of the deposited data

How the results depend on the processing

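Across other scalings, offsets, filters and models, 2718 to 3552 probe sets were higher and 2433 to 4306 lower, 45.2% to 52.8% of the calls were higher, and the median difference stayed between -0.03 and 0.01. Leaving out 1 array gave 2527 to 3067 higher and 2512 to 2920 lower. The methods' t-test called 2614 higher and 2852 lower before adjustment but only 420 and 454 after Benjamini-Hochberg adjustment, and 496 and 529 differed 2-fold in all 4 array pairs. Alike probe sets numbered 9978 to 10316. The arrays share only a number (r = -0.0157 between same-numbered deviations of the compared groups, up to 0.104 elsewhere), and with a replicate block 3548 were higher and 3589 lower. In the opposite pairing, settings chosen after seeing the data gave 4052 to 5302 higher and 3636 to 4182 lower. No named gene reversed. Of 146, 66 kept their call under the adjusted t-test, counting genes that passed in neither test. The other 80 lost significance there, and 132 could be tested with the filter at 100. As deposited, 8 lost significance (Otx2, Tgfb2, Nolc1, Fbl, Rxra, Kpna2, Smc4 and Ahnak), and leaving out 1 array lost 5 to 8, among them Gfap and Septin9. Cholesterol genes (18 higher) and oligodendrocyte progenitor genes (12 higher) kept their counts under the 3 scalings, the 2 filters and the 4 left-out arrays for which lists were counted, whereas oxidative phosphorylation had 7 to 15 higher. Other lists moved too. With the values as deposited, 15 of the 17 replication genes, 10 of the 20 quiescent NSC genes and 5 of the 13 Wnt genes were lower. With no filter these counts were 15, 9 and 4, and 8 of the 11 neural stem and progenitor markers were lower. Of the named genes, 12 were read on probe sets ending in _x_at and 10 on ones ending in _s_at, which can bind related transcripts. Signals under 50, such as those of Mobp, Hk2 and Rgs5 in 1 of the groups, may lie at background, so their folds are imprecise.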

Other observations

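Genes of stress and energy metabolism were also compared between rcCHIL3 at 3 days and MHM + GF at 7 days. Oxidative phosphorylation rose by small steps: 12 of 20 genes passed upward and none downward, with a median of 0.20 (7 upward with the values as deposited), and 16 were alike within 1.5-fold. Cycs, cytochrome c, had a signal of 2301 and 2362 with rcCHIL3 at 3 days and 1399 and 1526 in MHM + GF at 7 days (0.67 ± 0.06), and Ndufv1 of complex I had 796 and 774 against 540 and 542 (0.52 ± 0.06). Of 16 metallothionein and antioxidant genes, 9 rose and 4 fell (median 0.41). The 4 became 2 without rcCHIL3 replicate 1 at 3 days, 1 without MHM + GF replicate 2 at 7 days and 1 with no filter. Hmox1, heme oxygenase, had 247 and 249 with rcCHIL3 and 100 and 96.3 in MHM + GF (1.18 ± 0.08), Srxn1, sulfiredoxin, differed by 0.94 ± 0.08 and Gclm, of glutathione synthesis, by 0.79 ± 0.11, whereas the metallothionein Mt2 differed by -0.50 ± 0.07. All 16 were higher in the opposite pairing (median 0.81). Among 18 targets of p53, 10 rose and 2 fell, with Pmaip1 (Noxa) at 1.12 ± 0.10 and Perp at -1.51 ± 0.10.

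Of 14 heat shock and chaperone genes, 8 rose and 2 fell (median 0.25). Among small heat shock proteins, Cryab did not pass (0.17), while Hspb8 rose, with 605 and 623 against 174 and 184 (1.67 ± 0.09) and Hspb6 with 131 and 135 against 45.0 and 56.6 (1.11 ± 0.09). Hspa1b, an inducible Hsp70, differed by 1.01 ± 0.10 and averaged 1463 in MHM + GF at 3 days, against 102 with rcCHIL3 at 7 days and under 210 in both compared groups. In amino acid and ER stress, 10 of 24 genes rose and 3 fell, with the transporter Slc7a5 (504 and 509 against 174 and 183, 1.41 ± 0.07) and Atf3 (1.38 ± 0.10) upward and the chaperone Pdia4 downward (-0.65 ± 0.11). Interferon and MHC class I genes were measured in 8 cases, of which 5 rose and 3 fell. The 5 became 2 with the values as deposited or without rcCHIL3 replicate 2 at 3 days, and 3 with no filter, without rcCHIL3 replicate 1 at 3 days or without MHM + GF replicate 2 at 7 days. Gbp2, a guanylate-binding protein, was at 36.1 and 27.2 with rcCHIL3 and 136 and 152 in MHM + GF (-1.67 ± 0.11), and Ifitm3 was at 233 and 239 against 125 and 139 (0.75 ± 0.09). IGF genes were mixed (4 higher and 3 lower of 10), with Igf1r, the IGF-1 receptor, at -0.84 ± 0.11 and the binding protein Igfbp3 at 0.73 ± 0.10. In the retinoid list 1 of 6 rose and 2 fell, with 1 lower on leaving out any 1 of the 4 arrays and 2 higher without MHM + GF replicate 2 at 7 days. Rdh5, a retinol dehydrogenase, had 858 and 763 with rcCHIL3 at 3 days and 555 and 585 in MHM + GF at 7 days (0.49 ± 0.07).

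Some genes under the filter still differed between the arrays and were not tested. Nog, noggin, was at 22.0 and 20.8 with rcCHIL3 at 3 days and 3.1 and 3.4 in MHM + GF at 7 days, and Cntn3, a contactin, at 47.8 and 44.6 against 3.1 and 5.7.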
